A study of Mus musculus with 6 samples.

Results

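The genes described here encode the constant parts of mouse antibodies and the proteins that help to assemble them. They are 7 heavy chain constant genes (Ighm, Ighd, Ighg1, Ighg2b, Ighg2c, Ighg3 and Igha), the kappa light chain constant gene Igkc, the joining chain gene Jchain, and Mzb1, an endoplasmic reticulum (ER) cochaperone of immunoglobulin assembly. They were taken by symbol from the deposited table through its Ensembl gene identifiers, and make up 10 of its 47729 genes. Poly(A) RNA of mouse bone marrow was sequenced in 3 libraries of mutants lacking the SNORD113-114 cluster (cluster KO) and in 3 libraries of wildtype mice. No treatment is named for either group, both groups were sampled from the same tissue, and the design text speaks of 3 mice per genotype. The cluster codes for small nucleolar RNAs of the box C/D class. The sources used here give no strain, age or sex, nor how the deletion was made or whether the marrow was sorted. Sex-linked genes differed between the genotypes, as given below, so genotype and sex cannot be told apart. Whether each library came from 1 animal is not labelled, and each wildtype library had many reads of both Xist and Y-linked genes. The p-values therefore measure the spread between libraries.

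An antibody is built of paired heavy and light chains. A developing B cell first makes the mu heavy chain of IgM from Ighm, and a mature naive B cell adds the delta chain of IgD from the same primary transcript by alternative splicing. Class switch recombination then replaces the mu constant region by a gamma, epsilon or alpha region, which gives IgG, IgE or IgA. Light chains are either kappa or lambda, and a single cell as a rule uses one of them. Plasma cells, which settle in the bone marrow, secrete the antibody and hold immunoglobulin mRNA at very high levels. The J chain links IgM and IgA units into polymers.

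The IgG genes arose by duplication, so the sequence that sets them apart bears on which gene a read is given to. The hinge exon, the flexible joint whose cysteines bond the paired heavy chains, is shown for the 4 IgG members because it differs from Ighg2b by more than the coding sequence as a whole, and only Ighg2b had more than a few reads. The exons are the second coding exons on the minus strand of chromosome 12 in GRCm38 (the assembly that mm10 also names), at chr12:113360529-113360576 for Ighg3, chr12:113329844-113329882 for Ighg1, chr12:113307261-113307326 for Ighg2b and chr12:113288263-113288325 for Ighg2c. Capitals mark the in-frame cysteine codons.
Ighg3: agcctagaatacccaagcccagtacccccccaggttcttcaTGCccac
Ighg1: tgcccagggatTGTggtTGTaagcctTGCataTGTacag
Ighg2b: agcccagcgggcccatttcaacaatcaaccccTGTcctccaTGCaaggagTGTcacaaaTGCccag
Ighg2c: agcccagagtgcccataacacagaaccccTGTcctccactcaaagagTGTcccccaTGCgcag
Ighg1 and Ighg2b carry 4 cysteine codons in the hinge exon, Ighg2c 3 and Ighg3 1. Aligned to the Ighg2b exon, identity was 77.3% for Ighg2c, 51.5% for Ighg3 and 43.9% for Ighg1. Over the whole coding sequence Ighg2b shared 86.0% of aligned bases with Ighg2c, 75.7% with Ighg3 and 75.5% with Ighg1. Of the stretches of 50 bases in the annotated Ighg2b exons, 4.15% also occur in another constant gene, most of them in Ighg2c. For Ighm, Ighd, Igha and Igkc the share was 0. Reads from shared stretches have more than 1 alignment and stay outside the gene counts, so the Ighg2b count may leave out some of its reads.

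Across the 6 libraries, 2 members were higher in cluster KO marrow (Ighm and Mzb1) and 1 was lower (Ighg2b). Of the 10 members, 7 had enough reads for the test, and 4 of them (Ighd, Igha, Igkc and Jchain) did not pass it. The test was the quasi-likelihood F-test of edgeR, with p-values adjusted by Benjamini-Hochberg over 15686 genes and a threshold of 0.05. It called 27.9% of all tested genes, 15.9% as higher and 12.1% as lower in cluster KO. The 3 called members were also the only tested members whose libraries did not overlap between the genotypes, a property of 46.0% of all tested genes. With 7 members tested, their share of calls lies near this background, and the description below rests on the size of the changes and on single libraries. Values are normalised read counts, given as CPM (counts scaled to a common library size), on library sizes scaled by the trimmed mean of M values. In a bulk sample, fewer cells of a type and less RNA per cell cannot be told apart.

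**Figure D1:**
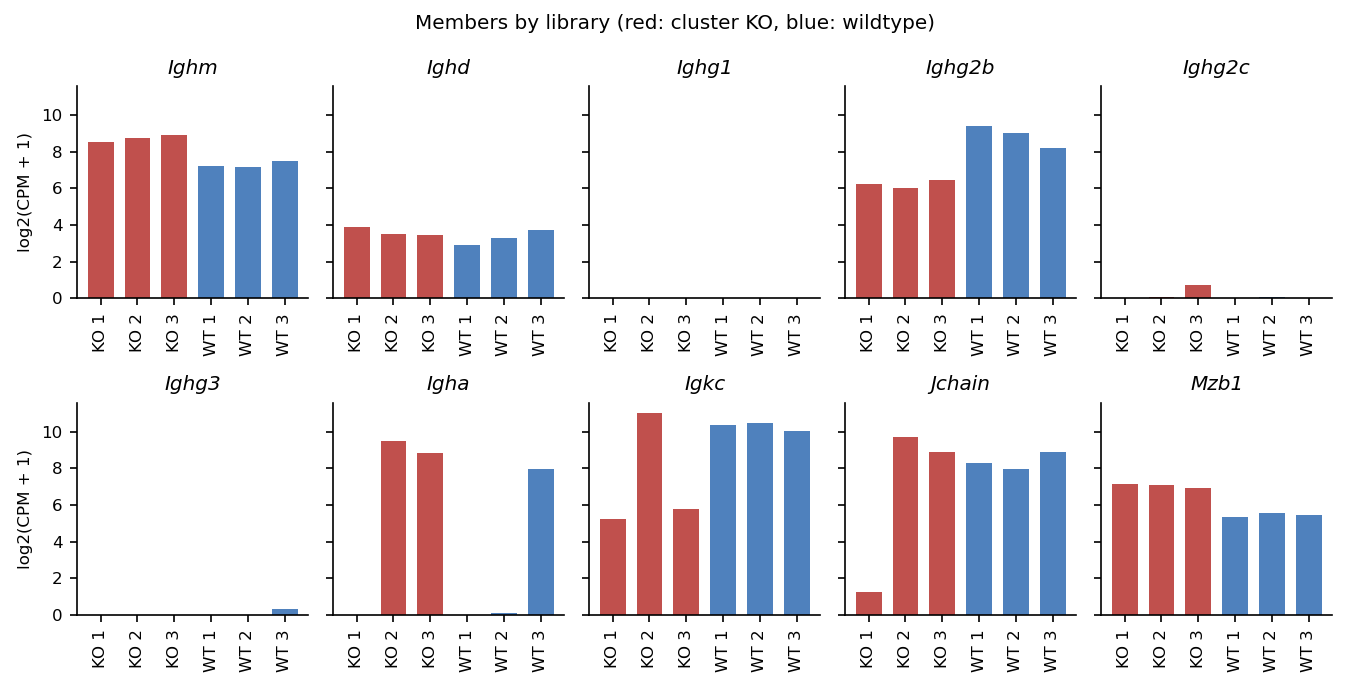
Normalised read counts of the 10 members in each library, on a log2(CPM + 1) axis, with cluster KO libraries in red and wildtype libraries in blue. Ighm and Mzb1 stand higher in every cluster KO library and Ighg2b lower, while Igha, Igkc and Jchain differ by large amounts between libraries of the same genotype.

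The unswitched heavy chain rose. Ighm (chr12:113418558-113422730, minus strand) stood at 366, 437 and 481 CPM in the cluster KO libraries and at 149, 141 and 179 CPM in the wildtype libraries. The groups did not overlap, and the lowest cluster KO library held more than the highest wildtype library. Means were 428 ± 57.5 CPM (SD, n = 3) against 156 ± 19.7 CPM (SD, n = 3), a 2.74-fold rise (log2 change 1.45 ± 0.14 SE, edgeR adjusted p = 0.000456). The raw counts behind it were 8035, 10399 and 10359 against 3290, 2503 and 3493. Counts are per gene, so the membrane and secreted forms of the mu chain cannot be told apart.

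The delta heavy chain did not follow it past the test. Ighd (chr12:113406604-113416324), whose product marks mature naive B cells, stood at 13.6, 10.3 and 10.1 CPM in cluster KO and at 6.46, 8.93 and 12.1 CPM in wildtype libraries. The ranges overlapped, and the third wildtype library lay above 2 of the cluster KO libraries. The fitted log2 change was 0.30 ± 0.27 (SE, edgeR adjusted p = 0.429). Per kilobase of exon, Ighd stood at 5.3 to 7.15 CPM and Ighm at 194 to 255 CPM in the cluster KO libraries. In the wildtype libraries these levels were 3.4 to 6.38 CPM per kilobase for Ighd and 75 to 94.7 for Ighm. The ratio of Ighd to Ighm counts was 0.0371, 0.0235 and 0.0209 in cluster KO and 0.0435, 0.0631 and 0.0678 in wildtype libraries, lower in each cluster KO library than in any wildtype library.

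The IgG2b heavy chain fell by the largest fold among the called members. Ighg2b (chr12:113302965-113307933) stood at 74.9, 63.6 and 85.4 CPM in cluster KO and at 673, 511 and 291 CPM in wildtype libraries. The cluster KO libraries lay close together, whereas the wildtype libraries spread widely, and the groups did not overlap. Means were 74.6 ± 10.9 CPM (SD, n = 3) against 492 ± 192 CPM (SD, n = 3). Wildtype was 6.59-fold higher (log2 change -2.72 ± 0.26 SE, edgeR adjusted p = 0.000566). Each wildtype library had its own leading variable segments, as given below, and how many cells gave the Ighg2b reads was not tested.

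The other IgG constant genes were close to absent. Ighg1 had 0 counts in all 6 libraries, a result that is compatible with up to 3 counts. On library totals without scaling, that limit is 0.128 to 0.17 CPM depending on the library. Ighg2c had 0, 1 and 14 counts in cluster KO libraries, against 0, 1 and 0 in wildtype. Ighg3 had 0 counts in 5 libraries and 5 counts in the third wildtype library. These 3 genes did not pass the filter on low counts and were not tested. Ighe, the constant gene of IgE and no member of the set, also had 0 counts in all 6 libraries.

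Igha, the constant gene of IgA, was present in 3 libraries and near absent in the other 3. The cluster KO libraries had 0, 16991 and 9648 counts of Igha (chr12:113254830-113260236), that is 0, 714 and 448 CPM. The wildtype libraries had 0, 1 and 4852 counts, or 0, 0.0565 and 248 CPM. High and absent values thus occurred in both genotypes, and the fitted log2 change of 2.23 ± 3.18 (SE, edgeR adjusted p = 0.651) did not pass the test. Without the third wildtype library the wildtype side held 1 Igha count, and the fitted value of 13.61 then depends on the prior count of the fit.

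**Figure D2:**
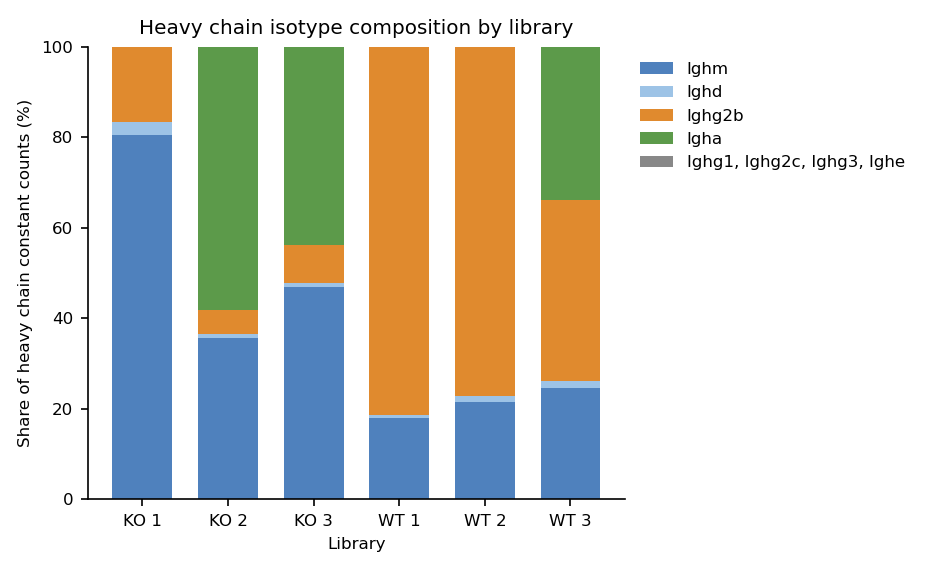
Share of each heavy chain constant gene in the summed heavy chain constant counts, in percent, per library (KO, cluster KO; WT, wildtype). Ighm makes up 80.5% in the first cluster KO library, Igha the largest share in the second, and Ighg2b at least 39.9% in each wildtype library.

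As a share of heavy chain constant counts, the libraries of each genotype had different makeups. Ighm took 80.5%, 35.7% and 46.9% in the cluster KO libraries and 17.9%, 21.4% and 24.5% in the wildtype libraries, with no overlap. Ighg2b took 16.5%, 5.19% and 8.34% against 81.3%, 77.2% and 39.9%. Igha took 0%, 58.3% and 43.7% against 0%, 0.00855% and 34.0%. By heavy chain constant counts, the first cluster KO library was thus mostly Ighm, the second was led by Igha, and the third was split between both. The first 2 wildtype libraries were mostly Ighg2b. These are shares of heavy chain reads and do not count assembled antibody.

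Class-switched constant genes together made up 16.5% (95% Wilson interval 15.8 to 17.2), 63.5% (62.9 to 64.0) and 52.1% (51.4 to 52.8) of heavy chain constant counts in the cluster KO libraries. In the wildtype libraries they made up 81.3% (80.7 to 81.8), 77.3% (76.5 to 78.0) and 73.9% (73.1 to 74.6). The intervals cover counting error only. Counts are per gene, so whether the reads of these genes came from switched cells was not tested. Means were 44.0 ± 24.5% (SD, n = 3) against 77.5 ± 3.71% (SD, n = 3), a difference of -33.5 percentage points, described here without a test. Without the first cluster KO library the difference was -19.7 points, so that library carries much of it. In CPM, switched constant genes summed to 74.9, 778 and 534 in cluster KO and 673, 511 and 540 in wildtype libraries, ranges that overlapped.

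The light chains differed widely between libraries of the same genotype. Igkc (chr6:70726435-70726966, plus strand) stood at 36.3, 2100 and 53.3 CPM in cluster KO libraries and at 1300, 1430 and 1040 CPM in wildtype libraries. The 3 wildtype libraries lay close together, the second cluster KO library lay above them all, and the first and the third lay far below. Means were 732 ± 1190 CPM (SD, n = 3) against 1260 ± 194 CPM (SD, n = 3), with a fitted log2 change of -0.78 ± 1.75 (SE, edgeR adjusted p = 0.779). The call rested on 1 library: without the second cluster KO library, the log2 fold change of Igkc was -4.81 ± 0.24 (SE, edgeR adjusted p = 3.32e-05), which passes the test.

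The third cluster KO library held lambda in place of kappa. Iglc3, a lambda constant gene outside the set, stood there at 1000 CPM (21615 counts), against 3.83 and 13.2 CPM in the other cluster KO libraries and 14.1, 13.5 and 23.9 CPM in wildtype. Iglc2 stood at 4.93, 28.9 and 138 CPM against 32.1, 33.7 and 24.5 CPM. Iglc1 stood at 2.46, 34.3 and 58.8 CPM against 10.8, 2.26 and 9.0 CPM. For each of the 3 genes the groups overlapped and the third cluster KO library was the highest of all 6.

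None of the 3 lambda genes passed edgeR's test, with log2 fold changes of 4.31 for Iglc3 (SE 2.41, adjusted p = 0.264), 0.93 for Iglc2 (adjusted p = 0.598) and 2.10 for Iglc1 (adjusted p = 0.238). None of them had an unadjusted p under 0.05 either, and DESeq2 called neither Iglc1 nor Iglc2 and gave Iglc3 no adjusted p. Without the third cluster KO library the log2 fold changes of Iglc3 and Iglc2 were -1.01 and -0.83, and without the first that of Iglc1 was 2.64 (adjusted p = 0.00406, edgeR).

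Lambda made up 23.6% (95% Wilson interval 21.2 to 26.3), 3.5% (3.35 to 3.66) and 95.7% (95.5 to 96.0) of light chain constant counts in the cluster KO libraries. In the wildtype libraries it made up 4.21% (3.99 to 4.45), 3.35% (3.14 to 3.58) and 5.22% (4.93 to 5.52). The first of these shares comes from 1041 light chain constant counts, the others from 21533 to 51919. The mean difference was 36.7 percentage points and fell to 9.31 points without the third cluster KO library.

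Iglc2 and Iglc3 are near copies, with 96.2% identity of their coding sequences. The first stretch of each constant exon is shown, since the capitals mark the only 7 of 120 positions at which a read from it can tell them apart. Both lie on the minus strand of chromosome 16 in GRCm38, at chr16:19198733-19198852 and chr16:19065562-19065681.
Iglc2: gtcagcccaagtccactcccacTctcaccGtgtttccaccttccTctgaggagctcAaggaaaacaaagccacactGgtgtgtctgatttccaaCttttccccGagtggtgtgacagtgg
Iglc3: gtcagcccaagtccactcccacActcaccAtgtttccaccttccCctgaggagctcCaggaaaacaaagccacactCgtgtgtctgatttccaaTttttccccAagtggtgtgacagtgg
Of the stretches of 50 bases in the annotated exons, 10.7% for Iglc3 and 7.65% for Iglc2 also occur in the other gene, so the split between them is uncertain. Iglc3 took 83.6% of lambda constant counts in the third cluster KO library and between 17.2% and 41.7% in the other 5. The variable segment Iglv1 held 11794 of 11916 lambda variable counts (99.0%) in that library, and it also led in the second cluster KO library (70.0%) and the wildtype libraries (97.0%, 64.4% and 98.7%).

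**Figure D3:**
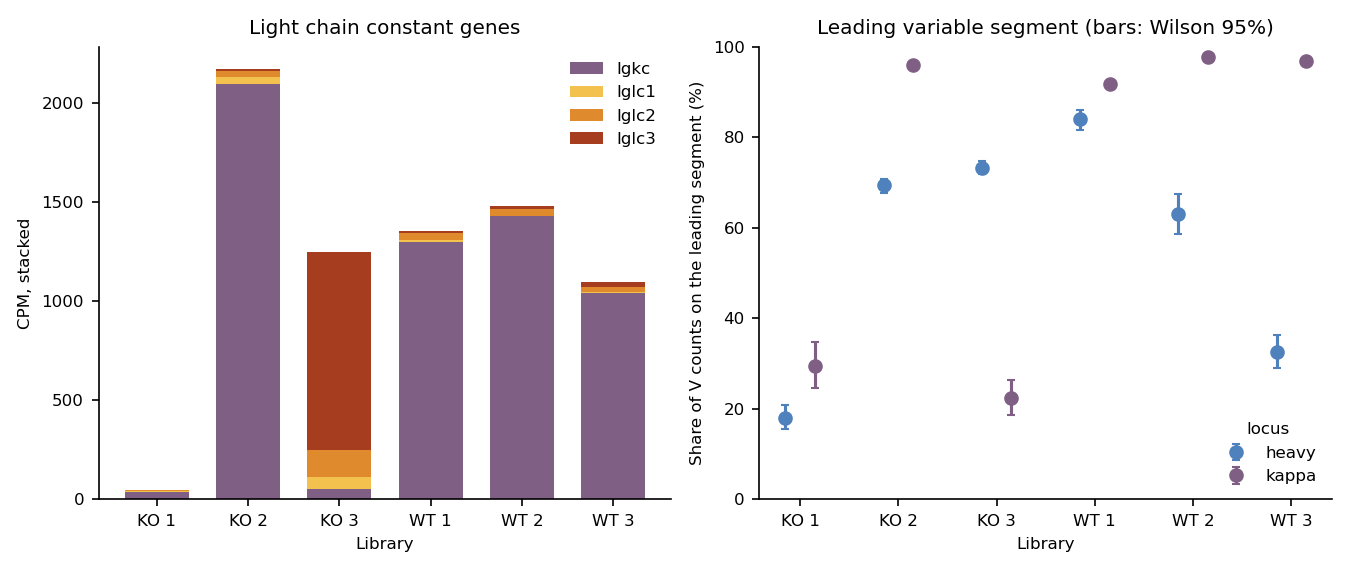
Left, stacked CPM of the light chain constant genes per library. Right, the share of heavy and kappa variable segment counts on the leading segment of each library, in percent with 95% Wilson intervals. The first cluster KO library has almost no light chain reads, the third is mostly Iglc3, and in the other 4 libraries a single kappa segment holds over 90% of the kappa variable counts.

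The leading heavy and kappa variable segments, looked up after their values were seen, were different in each library. One kappa segment held 96.0% of kappa variable counts in the second cluster KO library (Igkv4-61), and 91.9%, 97.7% and 96.8% in the wildtype libraries (Igkv4-57, Igkv3-4 and Igkv10-96). In the first and the third cluster KO libraries, where Igkc was low, the leading kappa segment held 29.4% of 309 and 22.3% of 467 counts. How many cells gave the immunoglobulin reads of a library was not tested.

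Heavy and light chain constant reads were also out of proportion in 1 library. Light chain constant genes summed to 47.5, 2180 and 1250 CPM in cluster KO libraries and 1350, 1480 and 1100 CPM in wildtype libraries. Light over heavy constant counts gave a ratio of 0.104 in the first cluster KO library and of 1.22 to 2.23 in the other 5. All constant genes together took 0.0514%, 0.346% and 0.223% of gene counts in cluster KO libraries and 0.216%, 0.214% and 0.182% in wildtype libraries. Since the highest and the lowest of these shares were both from cluster KO, the groups overlapped.

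The 2 assembly genes behaved differently. Mzb1, which is expressed in B cells, plasma cells and plasmacytoid dendritic cells, stood at 140, 134 and 121 CPM in cluster KO and at 39.3, 46.1 and 42.5 CPM in wildtype libraries. The libraries of each genotype lay close together and far from the other genotype. Means were 132 ± 9.82 CPM (SD, n = 3) against 42.6 ± 3.41 CPM (SD, n = 3), a 3.09-fold rise (log2 change 1.63 ± 0.13 SE, edgeR adjusted p = 0.00019).

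Jchain (chr5:88519809-88527891, minus strand) stood at 1.41, 839 and 472 CPM in cluster KO libraries and at 307, 245 and 474 CPM in wildtype libraries. The first cluster KO library, which had 31 Jchain counts, lay far below all others, and the second lay above all others. The fitted log2 change was 0.36 ± 1.76 (SE, edgeR adjusted p = 0.902). Its sign turned without the second cluster KO library (-0.53, adjusted p = 0.899), and without the first it was 0.93 (SE 0.32, adjusted p = 0.0635). Jchain over Mzb1 counts gave 0.0101 in the first cluster KO library and 3.91 to 11.1 in the other 5.

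**Figure D4:**
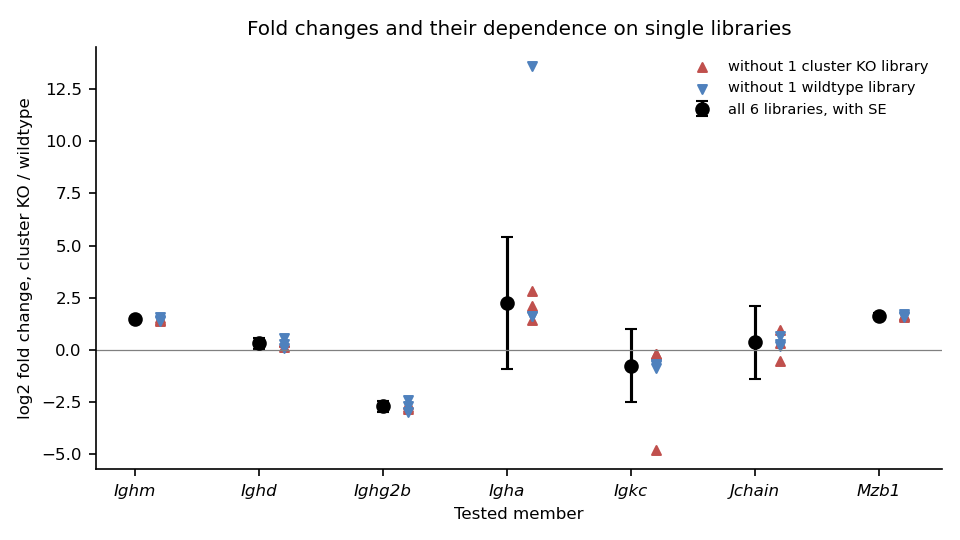
Fitted log2 fold changes (cluster KO over wildtype) of the 7 tested members, with all 6 libraries (black, bars are SE) and with each library left out in turn (triangles). Ighm, Ighg2b and Mzb1 keep their size, while Igkc falls to -4.81 without the second cluster KO library and Igha reaches 13.61 without the third wildtype library.

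The order of the members per kilobase of exon changed from library to library. In the first cluster KO library Ighm led (194 CPM per kilobase), followed by Mzb1 (115), Igkc (68.2) and Ighg2b (28.0), with Jchain last of those detected (0.562). In the second, Igkc led by far at 3960 CPM per kilobase, above Jchain (333), Igha (268) and Ighm (232). In the third, Ighm (255) stood above Jchain (187), Igha (168) and Igkc (100). In the wildtype libraries Igkc led with 2440, 2680 and 1960 CPM per kilobase. Ighg2b came second at 251 and 191 CPM per kilobase in the first 2 wildtype libraries, and Jchain at 188 in the third. Igkc was thus the most abundant member in 4 of the 6 libraries and Ighm in the other 2.

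Genes of class switch recombination moved in both directions. Of the 12 tested genes of the list, 1 was higher and 3 were lower in cluster KO, against 15.9% and 12.1% of all tested genes, with a median log2 fold change of 0.10 beside 0.00 for all tested genes. Ung, a uracil glycosylase, stood at 8.48, 4.2 and 3.71 CPM against 13, 15.9 and 14.8 CPM, with no overlap (log2 change -1.41 ± 0.32 SE, edgeR adjusted p = 0.0102). Rif1, which protects broken ends, fell by 0.52 on the log2 scale (adjusted p = 0.00921), and the mismatch repair gene Msh6 fell by 0.38 (adjusted p = 0.0239). Mad2l2, a shieldin subunit, rose by 0.48 (adjusted p = 0.037). With 1 library left out at a time, the list gave 0 to 2 higher and 1 to 4 lower calls. Mad2l2 lost its call without the second or the third library of either genotype, Ung without the second cluster KO library, and Msh6 without that library or any 1 wildtype library.

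Plasma cell regulators and markers moved in both directions. Of 14 tested genes, 4 were higher and 2 were lower in cluster KO, with a median log2 fold change of 0.38. Over all tested genes, 15.9% were called higher and 12.1% lower. The receptor gene Tnfrsf13b (TACI) stood at 60.3, 93.9 and 106 CPM against 30.4, 34.1 and 26.1 CPM (log2 change 1.52 ± 0.21 SE, edgeR adjusted p = 0.00237). Xbp1, the transcription factor of the secretory program, stood at 148, 202 and 225 CPM against 103, 105 and 77.2 CPM (1.01 ± 0.18 SE, edgeR adjusted p = 0.00422). Sdc1 (CD138), the surface marker of plasma cells, stood at 6.52, 10.1 and 7.38 CPM against 0.994, 3.45 and 1.59 CPM (2.0 ± 0.43 SE, edgeR adjusted p = 0.00905). None of these 3 genes overlapped between the genotypes, a property of 46.0% of all tested genes, and the fourth higher gene was Slamf7.

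Fkbp11, an ER prolyl isomerase of secretory cells, went the other way. It stood at 23.3, 21.0 and 24.4 CPM against 38.7, 41.4 and 38.0 CPM (log2 change -0.78 ± 0.15 SE, edgeR adjusted p = 0.00518). Ell2, an elongation factor that favours the secreted form of heavy chain mRNA, was the second lower gene and lost its call without the third cluster KO library or any 1 wildtype library, which left 1 lower gene. Prdm1, the master regulator of plasma cells, stood at 2.14, 0.462 and 1.02 CPM against 0.361, 1.19 and 0.972 CPM and did not pass the test (adjusted p = 0.593). The listed genes summed to 535, 607 and 637 CPM against 438, 480 and 424 CPM. Sdc1 and Xbp1 were thus also read in the first cluster KO library, where Jchain and the light chains were lowest.

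The ER folding and secretion genes fold and export antibody in plasma cells but serve every secretory cell. They gave 11 higher and 4 lower of 30 tested genes, with a median log2 fold change of 0.25. The shares over all tested genes were 15.9% and 12.1%. The oxidoreductase Pdia3 stood at 340, 482 and 610 CPM against 215, 230 and 147 CPM (log2 change 1.27 ± 0.22 SE, edgeR adjusted p = 0.00396). Its relative Pdia6 stood at 299, 349 and 443 CPM against 201, 197 and 149 CPM (1.0 ± 0.17 SE, edgeR adjusted p = 0.00353). Herpud1, a factor of ER-associated degradation, rose by 0.87 on the log2 scale (SE 0.16, adjusted p = 0.00501). The lectin chaperone Canx fell by 0.65 (SE 0.11, adjusted p = 0.00345). Hspa5 (BiP), the chaperone that holds unpaired heavy chains, gave 0.33 (adjusted p = 0.126), and Hsp90b1, the partner of Mzb1, gave -0.10 (adjusted p = 0.442). Both were named after their values were seen. The 11 higher calls fell to 5 without the second cluster KO library, and to 7, 6 and 4 without the first, the second and the third wildtype library. The 4 lower calls fell to 2 without the second cluster KO library.

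Markers of other B lineage stages moved with Ighm and Mzb1. Their calls are read against the 15.9% of all tested genes that were called higher. Of 12 tested early B cell genes, 11 were higher in cluster KO, with a median log2 fold change of 1.44, and their summed level was 2460 to 2650 CPM against 864 to 924 CPM. Among them were the surrogate light chain gene Igll1 (log2 change 1.58 ± 0.10 SE, edgeR adjusted p = 6.44e-05) and the receptor subunit Cd79a (2.20 ± 0.11 SE, edgeR adjusted p = 1e-05). Of 15 mature B cell genes, 7 were higher (median 1.08, summed 216 to 257 CPM against 93.6 to 108 CPM), and 4 without the second cluster KO or the third wildtype library. Among the higher ones was Cd72, a B cell surface receptor (1.14, edgeR adjusted p = 0.00388). No gene of either list was at 0 in any library. Plasmacytoid and other dendritic cell genes summed to 356 to 378 CPM against 256 to 292 CPM, with 3 of 10 higher. Ly6d (1.18, edgeR adjusted p = 0.00297) accounted for most of the difference in this sum, at 131 to 174 CPM against 53.8 to 86.1 CPM. Tcf4, a transcription factor of plasmacytoid dendritic cells, stood at 71.4, 75.9 and 64.4 CPM against 79.9, 78.3 and 95.8 CPM and did not pass the test (-0.26, adjusted p = 0.17). The defining marker Siglech overlapped, at 3.28, 2.98 and 7.51 CPM against 2.44, 1.53 and 4.35 CPM. The part of these cells in the Ighm and Mzb1 results was not tested.

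The other marker lists are read against the 15.9% higher and 12.1% lower calls over all tested genes. T and NK cell genes gave 3 higher of 11 tested, neutrophil genes 4 of 10, monocyte and macrophage genes 2 of 10, and stroma and endothelium genes 1 of 5. Stem and progenitor genes gave 5 higher and 1 lower of 10, erythroid genes 5 lower of 9, and megakaryocyte and platelet genes 3 lower of 6. With 1 library left out at a time, there were 2 to 4 lower calls for erythroid genes, 2 to 7 higher for stem and progenitor genes, and 0 to 2 higher for monocyte and macrophage genes. Of marrow markers, the neutrophil list summed to 6310 to 20500 CPM and the erythroid list to 673 to 1300 CPM. The globin gene Hbb-bs stood at only 64 to 317 CPM, low for whole marrow, and whether red cells were removed is not stated. Xist had 42, 2 and 34 counts in cluster KO libraries against 5044, 4401 and 4835 in wildtype, and the Y-linked gene Ddx3y had 1704, 2071 and 2159 against 616, 321 and 418. The Y-linked genes Eif2s3y, Kdm5d and Uty were likewise higher in cluster KO and had reads in every library. Each wildtype library thus held high Xist together with Y-linked reads, such as 473, 270 and 647 counts of Eif2s3y. Whether a wildtype library mixed animals of both sexes is not labelled and was not tested. Genotype and this difference in sex-linked genes, and with it any difference in the sex of the animals, cannot be told apart. That limit applies to every called gene, Ighm, Mzb1 and Ighg2b among them. The heavy chain members lie on chromosome 12, as does the deleted cluster. Any inherited sequence difference linked to the deletion there cannot be told apart from genotype either. Library totals were 17663369 to 23459168 gene counts, and libraries of 1 genotype differed by more than sampling noise. Reads with more than 1 alignment were 13.377 to 14.685% of reads in cluster KO and 16.118 to 16.809% in wildtype libraries, and their part in the Ighg2b result was not tested.

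For each tested member, the genes with the most similar pattern were sought among 11887 protein-coding genes outside the immunoglobulin loci. The measure was Pearson's r of log2(CPM + 1) over the 6 libraries, given as a description, since the libraries share genotype and depth. Ighm was most like Abi3 (r = 0.999), Procr and Pip4p1, and Mzb1 most like Lpgat1 (0.999), Anxa1 and Rpl3l. Ighg2b was most like Ndufs3 (0.996), Ltc4s and Guk1, and Ighd most like Intu (0.991), Abca13 and Mb21d2. Igkc was most like Parm1 (0.986), Cnnm2 and Exoc3l2. Parm1 had its 2 lowest values in the first and the third cluster KO libraries, at 5.43 and 5.98 CPM, and 8.54 to 9.76 CPM in the other 4. Jchain was most like Dennd2c (0.989), Ptcd1 and Txndc11, with Dennd2c at 0.73 CPM in the first cluster KO library and 3.76 to 5.13 CPM in the other 5. Igha was most like Abtb2 (0.968), Kbtbd12 and Sept4.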

How the data were processed

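Bone marrow poly(A) RNA was measured in 3 cluster KO and 3 wildtype libraries, grouped by their titles. Per the labels' protocols, the libraries do not keep strand and were pooled for sequencing, so reads of overlapping genes on opposite strands cannot be told apart. Per the submitters' processing notes, bcl2fastq, TopHat2, HTSeq and mm10 were used. The sources used here name no versions, annotation release or counting mode. The authors deposited whole-number read counts for each Ensembl gene, with no normalization. Library sizes and tests did not include the 5 summary rows. They took 7.294 to 11.059% of reads outside genes, 13.377 to 16.809% with more than 1 alignment and 2.709 to 2.947% as ambiguous.

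Symbols, positions and exon lengths came from GENCODE M21 (GRCm38), which matched 47224 of 47729 genes and 176 of 177 listed symbols. Its transcripts gave the sequences shown. The test was edgeR 4.0.16 in R 4.3.3: TMM scaling, filterByExpr with a minimum count of 10 (15686 genes kept), a quasi-likelihood fit (robust) on genotype alone, and Benjamini-Hochberg adjustment at 0.05. The SE is the log2 fold change divided by the square root of F, as a size. CPM use TMM-scaled library sizes, except for the limit of 3 counts, which uses library totals without scaling. Levels of different genes are compared per kilobase of merged exons. Shares have Wilson 95% intervals, and they and the limit of 3 counts reflect counting error alone, as no molecular identifiers were used. The code was tested on simulated data.

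The members and the 15 lists were chosen with earlier results of these data known. Named are all members, the 4 smallest p of each pathway list, genes among the 2 most abundant of cell type lists, and the 3 genes most like each tested member, besides genes said to be named after their values were seen. Slamf7 and Ell2 complete their list's calls, and Prdm1 and Siglech are named as defining genes, also after their values were seen. A few listed genes are not reported here. Alternatives were other scalings, DESeq2 1.42.0, no filter, the replicate block, a fit that was not robust, library sizes without immunoglobulin genes, counts per kilobase for shares, and each library left out in turn.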

Additional observations from a re-analysis of the deposited data

How the results depend on the processing

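Ighm (log2 fold change 1.36 to 1.56), Ighg2b (-2.99 to -2.42) and Mzb1 (1.57 to 1.69) kept their direction and their call under all 13 alternatives, and their largest adjusted p was 0.00937, 0.0112 and 0.00949. Ighd (0.10 to 0.56) and Igha (1.44 to 13.61) did not pass under any of the 13. Igkc ranged from -4.81 to -0.22 and passed only without the second cluster KO library, among 12 alternatives with an adjusted p, since DESeq2 gave none. Jchain ranged from -0.78 to 0.93 and passed under none. Members called higher were 2 under every alternative, and members called lower were 1, or 1 to 2 when a library was left out. Genes called higher ranged from 1258 to 3151 and lower from 742 to 2579 when a library was left out. The fewest in both directions came without the second cluster KO library. The labels do not say whether the replicate numbers pair the libraries. Same-numbered libraries had correlations of their deviations of -0.198, -0.000354 and -0.171, and differently numbered ones of -0.0225 to 0.204. Deviations from the mean of so few libraries depend on each other, so these values cannot settle whether libraries shared a preparation. A replicate block gave 1331 higher and 865 lower genes, kept the 3 called members, called 6 higher ER genes and 4 mature B cell genes, and gave Jchain -0.78 and Iglc2 -0.10. The difference in the class-switched share ranged from -43.2 to -19.7 percentage points and that in the lambda share from 9.31 to 55.4 points when a library was left out. Counted per kilobase they were -33.9 and 37.1 points. The early B cell list kept 11 higher calls under every alternative, while erythroid calls fell from 5 to as few as 2 and stem and progenitor calls ran from 2 to 7. The causes of these shifts were not tested. Depth limits what can be said of Ighg1, Ighg2c and Ighg3, which had at most 14 counts in a library.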
